A study of Mus musculus with 24 samples.

Results

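Cnga3, Padi2, Lrrn1, Rundc3a, Slc22a12, Slc38a1 and Chst2 were 7 of the 55450 genes counted in RNA from mice lacking Thumpd1 and from wild-type (WT) controls. They were selected on their expression differences between knockout (KO) and WT testes, among the largest there, 3 of them with a higher level in KO and 4 with a lower level. Their values in that contrast are therefore given as a description without a test, and the members were tested only in cerebellum, in liver and between WT tissues. Total RNA was sequenced from testes, cerebellum and liver, with 4 WT libraries (replicates 1 to 4) and 4 Thumpd1 KO libraries (replicates 5 to 8) for each tissue, 24 in all. The mice were 6 to 12 weeks old and of either sex, and age-matched littermates served as controls. The KO alleles came from CRISPR-Cas9 cuts in exons 1 and 4 of Thumpd1 in C57BL/6N eggs, which gave several lines that were backcrossed to C57/BL6; which line each library came from is not given in the sources used here. The study calls the libraries of a group biological replicates, while the labels tie no library to an animal, and p-values measure the spread between these libraries.

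Thumpd1 encodes an RNA-binding adaptor that directs an acetyltransferase to leucine and serine tRNAs, where a cytidine becomes acetylated. The 7 genes belong to unrelated families. Cnga3 is the channel-forming subunit of the cyclic nucleotide-gated channel of cone photoreceptors, which opens when it binds cyclic GMP. Padi2 is a calcium-dependent enzyme that converts arginine residues of proteins to citrulline and is best known in oligodendrocytes, muscle and white blood cells. Lrrn1 is a membrane protein with leucine-rich repeats found in developing neural tissue. Rundc3a carries a RUN domain and binds the small GTPase Rap2. Slc22a12 is the urate-anion exchanger of the kidney proximal tubule, Slc38a1 is a sodium-coupled transporter that takes up glutamine and other neutral amino acids, and Chst2 is a Golgi enzyme that adds sulfate to N-acetylglucosamine in glycans. The testis is a mixture of germ cells at successive stages of spermatogenesis with Sertoli cells, which nurse them, and Leydig cells, which make androgens, so the level of a transcript in whole testis depends on the number of cells that make it as well as on the amount in each. Fewer cells of a type and less RNA per cell cannot be told apart in these libraries.

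The promoters of the members were read from RefSeq on GRCm38.p6, as windows from 250 bases before to 50 bases after a transcript start, and 5 of the 7 members had one. The windows are shown because genes that moved together could be compared by their start regions. Capitals mark the TATA box letters TATAAA, the element known as CCAAT and the GC box letters GGGCGG, or their reverse complements. Each run reads 5′ to 3′ on the strand of the gene, and the members higher in KO testes come first.
Cnga3, chr1:37218955-37219254, plus strand: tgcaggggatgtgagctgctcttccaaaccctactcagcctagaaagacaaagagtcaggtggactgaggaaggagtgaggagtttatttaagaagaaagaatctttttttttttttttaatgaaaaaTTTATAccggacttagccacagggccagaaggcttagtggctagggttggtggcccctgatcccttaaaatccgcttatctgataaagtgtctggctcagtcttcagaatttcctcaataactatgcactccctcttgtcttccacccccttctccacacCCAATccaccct
Padi2, chr4:140906110-140906409, plus strand: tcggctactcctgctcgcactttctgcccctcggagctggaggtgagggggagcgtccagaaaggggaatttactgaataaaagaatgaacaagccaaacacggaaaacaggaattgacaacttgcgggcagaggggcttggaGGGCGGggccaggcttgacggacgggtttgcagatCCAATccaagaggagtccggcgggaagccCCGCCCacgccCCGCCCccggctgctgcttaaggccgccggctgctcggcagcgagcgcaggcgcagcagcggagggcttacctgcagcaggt
Lrrn1, chr6:107529476-107529775, plus strand: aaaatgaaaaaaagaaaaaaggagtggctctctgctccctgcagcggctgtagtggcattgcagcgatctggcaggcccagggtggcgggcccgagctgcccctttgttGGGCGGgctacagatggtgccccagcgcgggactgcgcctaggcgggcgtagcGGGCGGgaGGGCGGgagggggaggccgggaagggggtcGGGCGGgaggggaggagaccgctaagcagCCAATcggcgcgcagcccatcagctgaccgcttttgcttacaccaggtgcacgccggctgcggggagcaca
Slc22a12, chr19:6543021-6543320, minus strand: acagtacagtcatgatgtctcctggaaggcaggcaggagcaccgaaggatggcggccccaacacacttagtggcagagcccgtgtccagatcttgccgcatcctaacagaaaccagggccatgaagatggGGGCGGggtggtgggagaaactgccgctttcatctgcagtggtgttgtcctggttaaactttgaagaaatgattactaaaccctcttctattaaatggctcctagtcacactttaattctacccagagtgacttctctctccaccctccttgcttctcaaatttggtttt
Chst2, chr9:95407221-95407520, minus strand: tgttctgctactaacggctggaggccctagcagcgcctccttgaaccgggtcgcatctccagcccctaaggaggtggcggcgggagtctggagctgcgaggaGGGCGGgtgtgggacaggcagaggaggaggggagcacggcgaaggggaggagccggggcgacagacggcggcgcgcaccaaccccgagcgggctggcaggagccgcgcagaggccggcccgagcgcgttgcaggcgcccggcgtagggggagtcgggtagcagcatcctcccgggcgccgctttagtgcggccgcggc
The members did not share one kind of start. Chst2 held 34 CpG dinucleotides in its window, Lrrn1 24 and Padi2 22, whereas Slc22a12 held 6 and Cnga3 held 2 in the window shown and 3 in its other window, against a median of 7 over 32851 windows of 27025 genes. GC boxes numbered 4 in Lrrn1, 3 in Padi2, and 1 each in Slc22a12 and Chst2, and 35.7% of all windows hold at least 1. The window of Cnga3 shown was the only one of the 6 member windows with TATAAA, which 13.6% of all windows hold, and it shared CCAAT, held by 37.4%, with Padi2 and Lrrn1. Neither the cAMP response element TGACGTCA nor the amino acid response element TGATGNAA was found on either strand of a member window, and these occur in 1.79% and 3.97% of all windows. These are matches of letters in a window and not evidence of binding. The RefSeq starts of Cnga3 lie inside the gene as GENCODE draws it and that of Chst2 lies upstream of it.

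Because the acetylated tRNAs read leucine and serine codons, the coding sequence of each member was also counted. Across 21526 mouse genes the median share of leucine codons was 10.2% and that of serine codons 7.89%. Slc22a12 held 85 leucine codons among 553, or 15.4%, a share met or passed by 5.17% of genes. Slc38a1 held 13.6% and Lrrn1 12.8%, while Padi2, at 9.66%, was below the median. Rundc3a had the largest share of serine codons of the 7, 11.7%, which 7.93% of genes met or passed. All 4 members lower in KO testes and 2 of the 3 higher ones were above the median share of all leucine codons, and Padi2 was the exception. Leucine codons other than CTC and CTG had a median share of 4.05%. They made up 6.15% of Lrrn1 codons, 5.98% of Slc38a1 codons and 4.16% of Slc22a12 codons. Their share was below the median in Cnga3 (3.29%), Chst2 (2.83%), Rundc3a (2.02%) and Padi2 (1.34%). The most leucine-dense 40 codons of Lrrn1, codons 61 to 100 (GRCm38, chr6:107567423-107567542, plus strand), are shown with the 10 leucine codons in capitals, of which 4 are other than CTC and CTG.
Lrrn1 codons 61 to 100: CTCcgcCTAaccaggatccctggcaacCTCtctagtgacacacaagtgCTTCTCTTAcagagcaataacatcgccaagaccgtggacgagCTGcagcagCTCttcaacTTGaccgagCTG

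Depth ranged from 16353797 to 37889615 counts per library, with testes at 27273231 to 36621604. Thumpd1 checked the labels. It lay between 24.3 and 26.3 CPM (counts per 1000000 counts of the library) in WT testes and between 0.768 and 1.14 in KO testes, between 21.8 and 24.02 in WT cerebellum and 0 and 0.113 in KO cerebellum, and between 9.19 and 10.1 in WT liver and 0 and 0.106 in KO liver. Markers fitted the tissue labels, with the 15 elongating spermatid markers summing to 14146 to 19822 CPM in testes and at most 269 elsewhere, the 8 granule neuron markers to 5757 to 6503 CPM in cerebellum and at most 18.7 elsewhere, and the 7 hepatocyte markers to 47091 to 83936 CPM in liver and at most 963 elsewhere. Libraries stood apart in 3 ways that touch the results. Epididymis markers summed to 116 CPM in testes WT replicate 2, to 4.52 to 5.68 in the other 3 WT testes libraries and to 20.5 to 34.2 in KO. Testes KO replicate 7 had the highest Sertoli and Leydig marker sums of the 8. In cerebellum, libraries with neighbouring numbers resembled each other, with a chi-square per gene of 3.04 to 5.12 between neighbours and 5.24 to 11.3 between other pairs of a group (1 being sampling noise), and choroid plexus markers summing to 1039 and 1063 CPM in WT replicates 1 and 2, 10.2 and 10.3 in 3 and 4, 13.2 and 13.0 in KO replicates 5 and 6, and 353 and 351 in 7 and 8. In testes the same quantity ran from 2.23 to 13.7 between neighbours and from 5.77 to 28.3 otherwise. There the neighbouring WT replicates 1 and 2 were the least alike WT pair, at 11.4 against 5.77 to 8.42 for WT pairs that were not neighbours. In liver, libraries lay much further apart and not all neighbours resembled each other, at 8.46 to 313 between neighbours, the highest for WT replicates 3 and 4, and 64.2 to 228 otherwise. The labels do not say that neighbouring libraries share an animal, and no 2 libraries were alike enough to be one library deposited in duplicate.

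All 7 members were separated between WT and KO testes without overlap, as the choice of members requires, and 28.6% of all genes tested in testes were separated in this way. Cnga3 (ENSMUSG00000026114.14, mm10, chr1:37214434-37263384, plus strand) was at 1.12, 1.02, 0.869 and 0.880 CPM in WT replicates 1 to 4 and at 4.29, 4.29, 4.26 and 3.53 CPM in KO replicates 5 to 8. Its KO libraries lay close together apart from replicate 8, and each was over 3 times any WT library. The mean was 0.974 ± 0.121 in WT and 4.09 ± 0.375 in KO (CPM ± SD, n = 4), a ratio of 4.20, from 26 to 36 counts per WT library and 102 to 156 per KO library.
Padi2 (ENSMUSG00000028927.6, chr4:140906344-140952586, plus strand) was at 3.46, 4.78, 3.28 and 3.49 CPM in WT and at 8.28, 8.40, 13.3 and 11.2 CPM in KO. KO replicates 7 and 8 stood above 5 and 6, and even the lowest KO library, replicate 5, was far above WT replicate 2, the highest WT library. The means were 3.75 ± 0.692 and 10.3 ± 2.43 CPM (SD, n = 4), a 2.75-fold ratio. The antisense gene Gm13031 overlaps 3.0% of the exon length of Padi2, and it was at 0 to 4 counts in every testes library.
Lrrn1 (ENSMUSG00000034648.9, chr6:107529768-107570214, plus strand) was at 1.37, 1.52, 1.47 and 1.13 CPM in WT and at 3.29, 3.23, 3.71 and 3.87 CPM in KO. Both groups were tight, and the ratio of means was 2.57-fold, from 1.37 ± 0.173 to 3.53 ± 0.316 CPM (SD, n = 4). Its depth was low, at 36 to 49 counts in WT libraries and 88 to 136 in KO.

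Among the 4 members lower in KO testes, Rundc3a was the most abundant. Rundc3a (ENSMUSG00000006575.14, chr11:102393403-102402555, plus strand) was at 36.2, 42.2, 39.7 and 40.6 CPM in the WT libraries and at 18.3, 19.8, 17.1 and 15.8 CPM in KO. Every KO library was near the KO mean, which was 17.8 ± 1.71 CPM against 39.7 ± 2.52 CPM in WT (SD, n = 4), so the WT mean was 2.23 times the KO mean. This rests on 1163 to 1359 counts per WT library and 457 to 628 per KO library, the deepest counts of the 7 in testes.
Slc22a12 (ENSMUSG00000061742.12, chr19:6535845-6543032, minus strand) was at 2.93, 2.98, 3.01 and 3.61 CPM in WT and at 1.41, 1.58, 1.42 and 1.70 CPM in KO. The WT mean of 3.13 ± 0.322 was 2.05 times the KO mean of 1.52 ± 0.137 CPM (SD, n = 4). Nrxn2, a presynaptic adhesion gene on the other strand, overlaps 30.1% of the exon length of Slc22a12, and did not pass the test in testes, where the groups overlapped, with a WT mean of 4.21 ± 0.326 and a KO mean of 5.42 ± 0.900 CPM (SD, n = 4; log2 change 0.23, limma adjusted p = 0.193). In cerebellum Nrxn2 was at 618 to 757 CPM while Slc22a12 was at 0 to 0.243 CPM.
Slc38a1 (ENSMUSG00000023169.15, chr15:96571418-96642913, minus strand) was at 6.77, 7.86, 7.12 and 6.84 CPM in WT and at 2.92, 2.94, 5.76 and 2.81 CPM in KO. KO replicate 7 lay apart from the other 3 KO libraries, nearer to the lowest WT library than to any of them, and still below every WT library. The WT mean of 7.15 ± 0.496 was 1.98 times the KO mean of 3.61 ± 1.44 CPM (SD, n = 4). Its libraries held 213 to 253 expected counts in WT and 80.2 to 211 in KO. The log2 change was -1.14 with all libraries and -1.39 without KO replicate 7. The expected counts of Slc38a1 were fractions in 7 of the 8 testes libraries and whole in all 16 libraries of the other tissues, so some testes reads were shared with another annotated gene, while the other 6 members had whole counts in every library.
Chst2 (ENSMUSG00000033350.7, chr9:95399292-95406722, minus strand) was at 3.71, 4.35, 4.81 and 4.08 CPM in WT and at 1.89, 2.09, 1.80 and 2.66 CPM in KO. The highest KO library, replicate 8, stayed below the lowest WT library. The WT mean of 4.24 ± 0.465 was 2.01 times the KO mean of 2.11 ± 0.388 CPM (SD, n = 4). Its libraries held 119 to 144 counts in WT and 57 to 77 in KO.

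**Figure D1:**
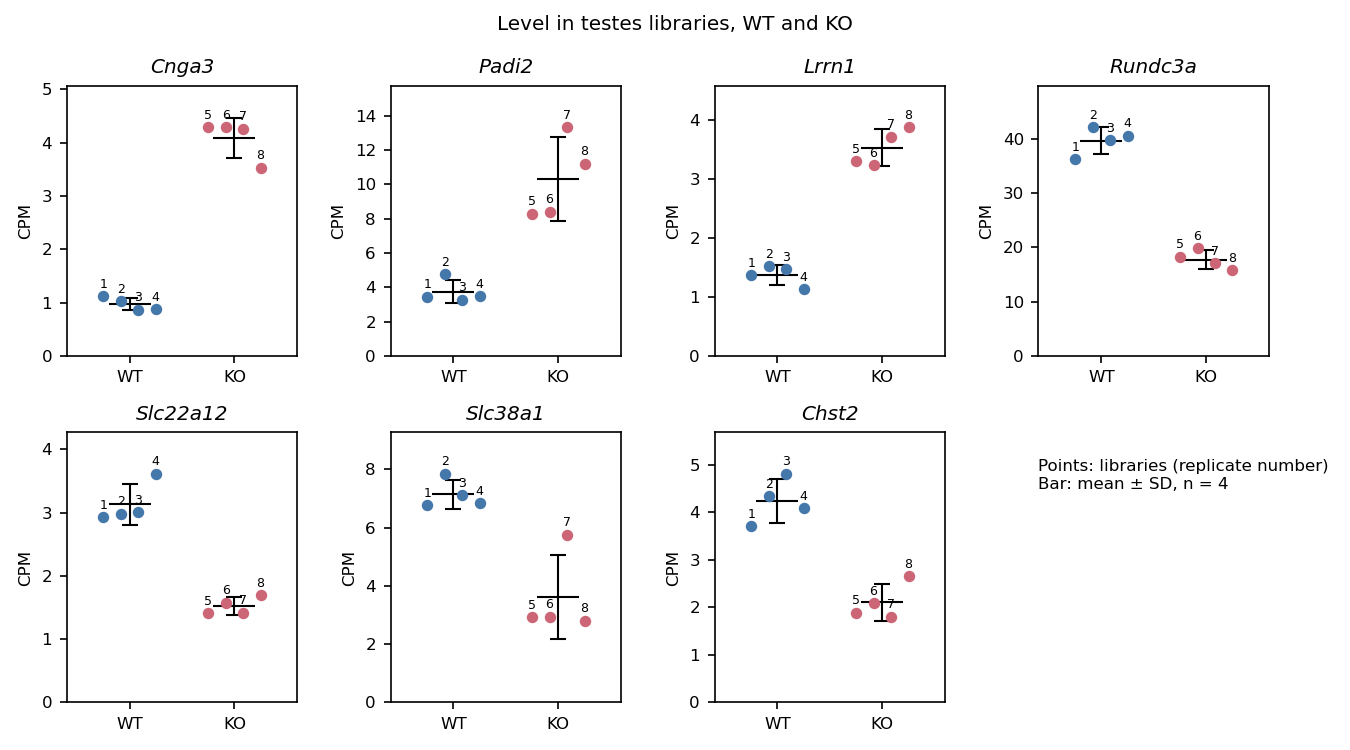
CPM of the 7 genes in each testes library, WT in blue and KO in red, with replicate numbers and the mean ± SD of 4 libraries as black bars. Cnga3, Padi2 and Lrrn1 are higher in all 4 KO libraries and the other 4 genes lower, and Slc38a1 in KO replicate 7, at 5.76 CPM, lies near the WT libraries.

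The log2 changes in testes (limma-voom with quantile normalization) were 1.95 ± 0.141 for Cnga3, 1.34 ± 0.170 for Padi2 and 1.25 ± 0.139 for Lrrn1, and -1.26 ± 0.0905 for Rundc3a, -1.15 ± 0.140 for Slc22a12, -1.14 ± 0.184 for Slc38a1 and -1.13 ± 0.152 for Chst2 (SE). The last 3 differed from each other by less than their SE. Among genes with adjusted p below 0.05, no overlap of WT and KO, a mean of at least 1 on the log2 CPM scale and no predicted-gene symbol, the only other genes above a member were Cyp21a1 (1.93), which ranked between Cnga3 and Padi2 and has the annotated copy Cyp21a2-ps, with which it can share reads, Col11a1 (1.32), which ranked between Padi2 and Lrrn1, and Thumpd1 itself (-4.81). The next outside were Kcnk3 (1.15) among the increases and Pax1 (-1.08) among the decreases, so Lrrn1 and Chst2 lay just inside. Cnga3 lay just inside on level, with a mean of 1.00 on that scale. Without these limits, Cnga3 ranked 20, Padi2 36 and Lrrn1 40 among the increases of the 19329 genes tested, and Rundc3a 30, Slc22a12 43, Slc38a1 45 and Chst2 46 among the decreases. Leaving out each library in turn kept Cnga3 between 1.90 and 2.03, Padi2 between 1.21 and 1.46, Rundc3a between -1.32 and -1.21 and Slc38a1 between -1.39 and -1.04.

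Markers of some testis cell types also differed between the genotypes, in a comparison where 9.74% of all genes rose and 10.7% fell. Of the 20 Sertoli markers, 16 rose and none fell (limma, adjusted p below 0.05), with a median log2 change of 0.45, and their summed level was 1548 to 1781 CPM in WT and 2017 to 2832 CPM in KO. Of the 15 elongating spermatid markers, 8 fell and none rose, with a median of -0.17 and sums of 19029 to 19822 CPM in WT against 14146 to 17473 CPM in KO. Of the 15 round spermatid markers, 6 fell and none rose (median -0.23). With TMM factors 13 elongating and 8 round spermatid markers fell (medians -0.33 and -0.27), with edgeR 11 and 7 and with DESeq2 13 and 9, while 3 round spermatid markers fell with no filter. With KO replicate 7 left out, 15 Sertoli markers rose and 5 elongating and 2 round spermatid markers fell. Round spermatid falls numbered 10 without KO replicate 5, 3 without WT replicate 1 or KO replicate 8, and 2 without WT replicate 2. Elongating spermatid falls numbered 5 without WT replicate 2. Under sample quality weights 6 round spermatid markers fell and 1 rose (median -0.09). With WT replicate 3 or WT replicate 4 left out, 9 Sertoli markers rose, 3 or 4 elongating spermatid markers fell, and 1 or 0 round spermatid markers fell. With neighbouring libraries summed none of the 3 lists had a call by limma, though 17 Sertoli, 9 elongating and 3 round spermatid markers had an unadjusted p below 0.05 and the medians were 0.46, -0.19 and -0.23. Leydig marker sums overlapped, at 1310 to 1476 CPM in WT and 1250 to 1975 CPM in KO, and KO replicate 7 was the highest, with 2 of 10 tested markers risen and 1 fallen. Among spermatogonia markers 2 of 13 rose, and among spermatocyte markers 1 of 15 fell. Macrophage marker sums did not overlap, at 82.3 to 93.9 CPM in WT and 98.0 to 129 in KO, with 1 of 9 markers risen. The spermatogonia, spermatocyte and macrophage counts are near those shares. Epididymis markers had only 3 of 10 genes above the filter. Of these Crisp1 and Adam7 had positive fitted changes that passed the test (3.86 and 4.45), but these were set by 3 WT libraries near 0: WT replicate 2 held 3067 counts of Crisp1, more than the 488 to 742 of any KO library, and the mean of Crisp1 was 23.95 CPM in WT and 19.5 in KO. They are not read as a rise. Lcn5 and Lcn8 were at 0 counts in all 8 testes libraries. Single Sertoli markers changed by 0.03 to 0.83 on the log2 scale and single elongating spermatid markers by -0.43 to -0.04. The part of these markers in the members' changes was not tested. Slc38a1 stood apart in the same KO library as the Sertoli and Leydig markers.

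**Figure D2:**
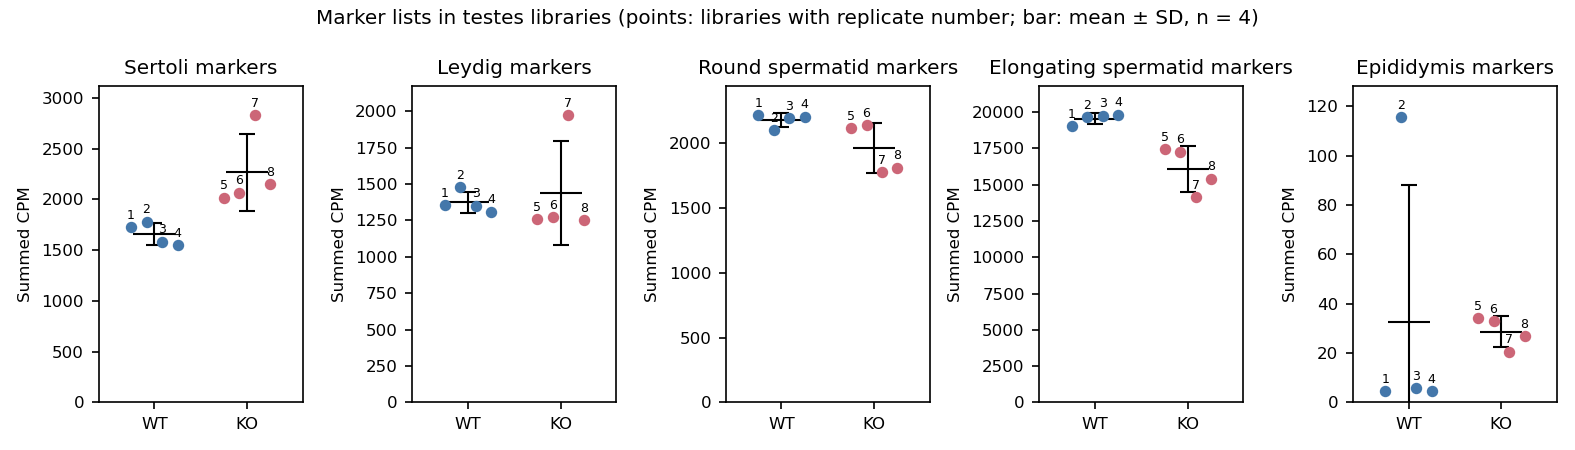
Summed CPM of 5 marker lists in each testes library, with replicate numbers and the mean ± SD of 4 libraries. Sertoli markers are higher and elongating spermatid markers lower in all 4 KO libraries, KO replicate 7 is the highest of the 8 for Sertoli (2832) and Leydig (1975) markers, and WT replicate 2 the highest for epididymis markers (116).

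Levels were then compared between WT tissues, per kilobase of exon where genes are set side by side. In WT testes Rundc3a had the highest level, 13.5 ± 0.856 CPM per kb, followed by Slc22a12 (1.38 ± 0.142), Padi2 (0.748 ± 0.138), Chst2 (0.578 ± 0.0634), Slc38a1 (0.415 ± 0.0288), Lrrn1 (0.371 ± 0.0468) and Cnga3 (0.246 ± 0.0307; SD, n = 4). Slc38a1 and Lrrn1 did not differ beyond their spread. Slc38a1 has 17236 exon bases over all its transcripts, so its level per kb is low where a short transcript is used. In WT cerebellum the order was Rundc3a (65.9 ± 2.68), Lrrn1 (35.8 ± 1.47), Slc38a1 (31.0 ± 0.952), Chst2 (9.61 ± 0.442) and Padi2 (3.46 ± 0.297 CPM per kb; SD, n = 4), with Slc22a12 and Cnga3 near 0. In WT liver no member had a mean above 0.5 CPM per kb. Chst2 was at 0.477 ± 0.0428 and Rundc3a at 0.434 ± 0.0891, which overlapped, Slc38a1 at 0.132 ± 0.0125, Padi2 at 0.0434 ± 0.0217 and Lrrn1 at 0.0184 ± 0.0214 (SD, n = 4).

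By level, 5 of the 7 members were highest in cerebellum. Lrrn1 was at 132 ± 5.42 CPM in WT cerebellum, 1.37 ± 0.173 in WT testes and 0.0681 ± 0.0792 in WT liver, and Slc38a1 at 534 ± 16.4, 7.15 ± 0.496 and 2.28 ± 0.216 (SD, n = 4). Rundc3a was at 194 ± 7.88, 39.7 ± 2.52 and 1.28 ± 0.262, and Padi2 at 17.4 ± 1.49, 3.75 ± 0.692 and 0.218 ± 0.109 CPM. Chst2 was at 70.4 ± 3.24 CPM in cerebellum, 4.24 ± 0.465 in testes and 3.49 ± 0.314 in liver. With limma on the 12 WT libraries (factors from the trimmed mean of M-values, TMM), the log2 difference of testes from cerebellum was -6.32 ± 0.787 for Lrrn1, -5.97 ± 0.0651 for Slc38a1, -3.80 ± 0.0888 for Chst2, -2.04 ± 0.0604 for Rundc3a and -1.97 ± 0.186 for Padi2 (SE), while its median over all genes was 0.37. Each passed the test, with a largest adjusted p of 7.38e-06 among the 5, in a comparison where 90.3% of the 21697 genes tested did. Over all alternatives Lrrn1 ran from -9.64 to -6.23 and Padi2 from -3.11 to -1.87.

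Slc22a12 and Cnga3 had the reverse pattern. Slc22a12 was at 0 counts in all 8 liver libraries, where 3 counts would be 0.0792 to 0.165 CPM, and at 0 to 6 counts in cerebellum libraries. Its WT level in testes was at least 128-fold higher than in liver (floor of 3 counts over the 4 WT liver libraries). Because it reached 1 CPM in testes alone, the tests between tissues are not given for it. Cnga3 was at 0 in 7 of 8 liver libraries and 5 of 8 cerebellum libraries, and at 1 count in the others, and its WT level in testes was at least 39.8-fold higher than in liver by the same floor. It did not reach 1 CPM in 4 of the 12 WT libraries and so had no estimate in these fits, in which the other 6 members had one. The 5 members other than Slc22a12 passed the test of testes against liver, as did 90.6% of genes, and of cerebellum against liver, as did 87.5%. Rundc3a was higher in testes than in liver by 4.02 ± 0.196, Lrrn1 by 3.87 ± 0.913, Padi2 by 3.18 ± 0.273 and Slc38a1 by 0.71 ± 0.122, and Chst2 was the only member lower in testes than in liver (-0.68 ± 0.123, log2 scale, SE), although its CPM was the higher of the 2 in testes. These values depended on scaling: the median of all genes was 0.83 higher in testes with TMM factors and 0.26 lower with quantile normalization (-0.26), under which Lrrn1 came to -0.70 (adjusted p = 0.401), Slc38a1 to -0.41 (adjusted p = 0.00776) and Padi2 to 0.46 (adjusted p = 0.109). Over all alternatives Chst2 in testes against liver ran from -2.06 to -0.58. Cerebellum against liver gave 10.19 ± 0.517 for Lrrn1, 6.68 ± 0.106 for Slc38a1, 6.06 ± 0.193 for Rundc3a, 5.15 ± 0.240 for Padi2 and 3.12 ± 0.0967 for Chst2 (log2 scale, SE).

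**Figure D3:**
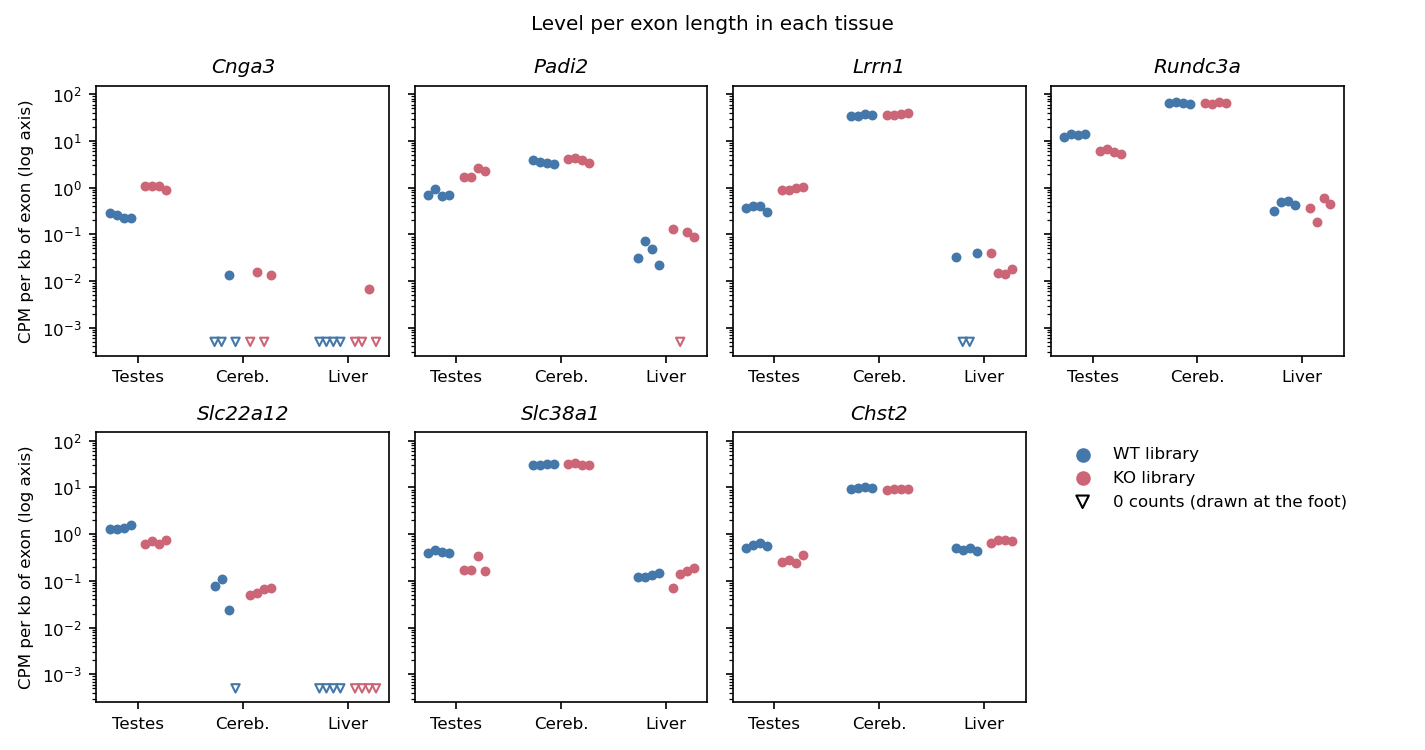
Level of each gene per kb of exon on a log axis in the WT (blue) and KO (red) libraries of each tissue, with open triangles at the foot for libraries at 0 counts. Lrrn1, Rundc3a, Slc38a1, Chst2 and Padi2 are highest in cerebellum, and Slc22a12 and Cnga3 in testes.

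Whether the members differed by genotype outside testes was tested in cerebellum and liver, which had no part in choosing them. In cerebellum none of the 5 members tested rose or fell (limma, adjusted p below 0.05), in a comparison where 3.93% of 16225 genes rose and 2.51% fell. Rundc3a was at 186 to 204 CPM in WT and 178 to 205 in KO, a log2 change of 0.00 with a 95% interval from -0.10 to 0.10 (adjusted p = 0.991). Slc38a1 was at 513 to 549 CPM in WT and 520 to 563 in KO (0.04, interval -0.04 to 0.11, adjusted p = 0.534). Lrrn1 was at 127 to 139 CPM in WT and 132 to 145 in KO (0.07, interval -0.02 to 0.16, adjusted p = 0.326). For these 3 genes the groups overlapped. Padi2 was at 15.8 to 19.2 CPM in WT and 17.1 to 22.0 in KO, with 3 of 4 KO libraries above every WT library (0.16, interval -0.02 to 0.34, adjusted p = 0.247). Chst2 was at 66.5 to 74.4 CPM in WT and 66.1 to 68.4 in KO (-0.08, interval -0.17 to 0.02, adjusted p = 0.290). No member was separated between WT and KO in cerebellum without overlap, and 13.8% of genes tested were. Cnga3 and Slc22a12 did not pass the filter of 1 CPM in 4 libraries, at 0 to 1 and 0 to 6 counts per library, so a change in them was not detectable at this depth.

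In liver Chst2 rose, the 1 member of 3 tested that passed, where 2.79% of 12816 genes rose and 3.12% fell. Chst2 was at 3.75, 3.30, 3.76 and 3.15 CPM in WT replicates 1 to 4 and at 4.66, 5.40, 5.41 and 5.19 CPM in KO replicates 5 to 8. Every KO library was above every WT library, and 12.7% of genes tested were separated without overlap in either direction. The means of Chst2 were 3.49 ± 0.314 and 5.16 ± 0.352 CPM (SD, n = 4). The log2 change was 0.52 ± 0.114 (SE; 95% interval 0.27 to 0.77, limma adjusted p = 0.0249), against -1.13 in testes and -0.08 in cerebellum, so liver and testes differed in sign, and this difference was not tested because the testes contrast chose the gene. The call was lost when WT replicate 1 (adjusted p = 0.0746), WT replicate 2 (0.0898), KO replicate 7 (0.0635) or KO replicate 8 (0.0611) was left out, with the value then between 0.48 and 0.54, and narrowly with no filter on low counts (0.0509). It was lost too when libraries with neighbouring numbers were summed (0.53, adjusted p = 0.424), and over all alternatives adjusted p ran from 0.00234 to 0.424.
Rundc3a was at 0.930 to 1.52 CPM in WT liver and 0.551 to 1.74 in KO (log2 change -0.12, interval -0.75 to 0.51, adjusted p = 0.842), and Slc38a1 at 2.10 to 2.56 and 1.20 to 3.27 (0.01, interval -0.55 to 0.57, adjusted p = 0.982). The groups overlapped for both. Padi2, at 0 to 0.651 CPM, and Lrrn1, at 0 to 0.150 CPM, did not pass the filter in liver, nor did Cnga3 and Slc22a12, and a change in these 4 was not detectable at this depth.

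**Figure D4:**
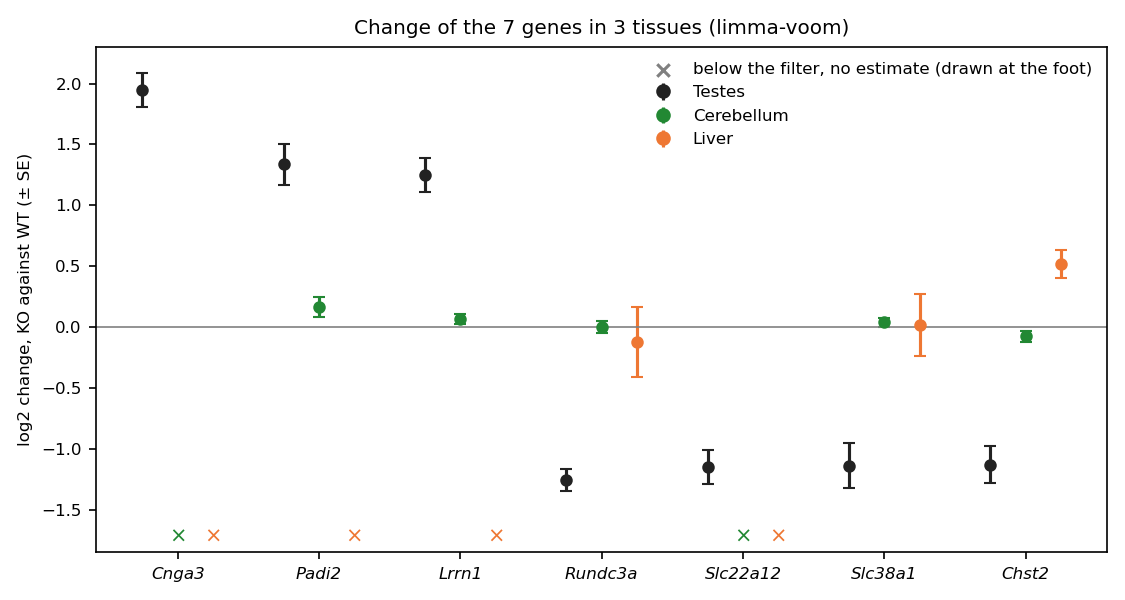
Log2 change of KO against WT with its SE for each gene in testes (black), cerebellum (green) and liver (orange), with crosses at the foot where a gene was below the filter. The testes values chose the genes; outside testes only Chst2 in liver, at 0.52, passed the test.

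Genes of the members' families and pathways were looked at next, from 7 lists of 152 genes in all, of which 87 genes other than the members were tested in testes. In testes 8 of these rose and 8 fell, 9.20% each, where 9.74% of all genes rose and 10.7% fell, so the lists together moved about as often as genes at large. The rises were the less stable side. With no filter on low counts 4 of 143 list genes rose and 7 fell. With WT replicate 3 left out 1 list gene rose and 5 fell, with WT replicate 4 left out 1 rose and 6 fell, with KO replicate 7 left out 3 rose and 6 fell, and with KO replicate 8 left out 3 rose and 11 fell. No list gene passed when neighbouring libraries were summed (limma, when 19 list genes had an unadjusted p below 0.05).
Of 16 genes of cyclic nucleotide-gated channels and cyclic GMP signalling, 1 rose, Npr1, a receptor for natriuretic peptides that makes cyclic GMP, by 0.43 on the log2 scale (adjusted p = 0.0223), from a WT mean of 72.3 ± 5.15 CPM to a KO mean of 99.5 ± 17.4 CPM (SD, n = 4). Of 2 other peptidylarginine deiminases tested, Padi6, known from oocytes, fell by 0.41 (adjusted p = 0.0223, and 0.0502 with no filter) while Padi2 was higher.
Of 9 genes of leucine-rich repeat neuronal adhesion, Slitrk5 rose by 1.29 (adjusted p = 0.00721), from 0.636 ± 0.145 to 1.68 ± 0.476 CPM. No WT library reached 1 CPM, so Slitrk5 passed the filter through KO alone, where it is high, and with no filter the change was 1.28 (adjusted p = 0.0163). Flrt3 (-0.84, adjusted p = 0.00765) and Lingo1 (-0.47, adjusted p = 0.0264) fell, Lingo1 not passing with no filter (0.0556). Of 18 genes of RUN domain proteins and Rap2, 3 rose and 1 fell. Both Rap2a (0.37) and Rap2b (0.40), small GTPases of the kind that Rundc3a binds, rose, with adjusted p of 0.0206 and 0.0280 (0.0433 and 0.0558 with no filter, so Rap2b then did not pass), as did Rubcnl (0.60), and Sgsm2 fell (-0.34).
Of 12 SLC22 transporters and genes of urate handling none rose and 3 fell: Pdzk1, a scaffold for transporters (-0.33, adjusted p = 0.00898), Slc22a18 (-0.42, adjusted p = 0.0136) and the urate exporter Abcg2 (-0.33, adjusted p = 0.0136). Of 15 genes of SLC38 transport and glutamine handling, Slc38a2, which carries the same kinds of amino acids as Slc38a1, rose by 0.31 (adjusted p = 0.0349, and 0.0665 with no filter), from 39.7 ± 3.21 to 51.7 ± 7.04 CPM, while Slc38a1 was lower. Of 15 carbohydrate sulfotransferases, Chst3 rose by 0.53 (adjusted p = 0.0263, and 0.0600 with no filter) and Gal3st2 fell by 1.63 (adjusted p = 0.000715), from 2.86 ± 0.328 to 0.983 ± 0.108 CPM. Gal3st2 has the neighbouring copies Gal3st2b and Gal3st2c, which can share reads, so its value is uncertain. The list medians in testes ran from -0.11 for urate handling to 0.19 for glutamine handling, against 0.00 for all genes tested.

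In cerebellum 10 of 96 tested list genes rose and 1 fell, 10.4% and 1.04%, where 3.93% and 2.51% of all genes did. The calls numbered 5 without WT replicate 1, 7 without WT replicate 3, 6 without WT replicate 4, 7 each without KO replicates 5, 7 and 8, 20 without KO replicate 6, 6 with no filter (5 higher and 1 lower), and 0 by limma with neighbouring libraries summed, when 19 list genes had an unadjusted p below 0.05. The called genes included Slitrk3 (0.38) and Slitrk5 (0.40, adjusted p = 0.00135). Slitrk5 was also higher in KO testes, where it passed the filter through KO alone. The amino acid transporter genes Slc7a5 (0.47, adjusted p = 0.00197), from 48.8 ± 2.77 to 68.2 ± 6.85 CPM, and Slc3a2 (0.23, adjusted p = 0.00880) rose. They form a heteromeric transporter of large neutral amino acids. The sulfotransferases Chst1 (0.33) and Gal3st3 (0.23, adjusted p = 0.0226, and 0.0517 with no filter) also rose. The RUN domain gene Fyco1 fell by 0.22 (adjusted p = 0.00603). Cell type markers moved beside these calls. Midbrain marker sums were 24.01 to 34.5 CPM in WT cerebellum and 40.4 to 61.5 in KO (2 of 3 tested rose), forebrain sums 8.29 to 9.23 and 11.2 to 13.97 (1 of 4 tested rose) and granule neuron sums 6258 to 6503 and 5757 to 6099 (4 of 8 fell). Endothelium sums were 171 to 179 CPM in WT and 186 to 199.8 in KO (1 of 8 rose), and macrophage sums 52.9 to 63.6 and 63.9 to 67.3 (0 of 8 passed by limma, 2 of them with an unadjusted p below 0.05). None of these 5 sums overlapped between WT and KO, and their part in the list changes was not tested. In liver none of 71 rose and 3 fell, 4.23%, close to the 3.12% of all genes that fell there. Gal3st1, which makes sulfatide, fell by 2.06 (adjusted p = 0.00269), from 3.69 ± 1.14 to 0.900 ± 0.135 CPM, Rusc1 by 0.50 (adjusted p = 0.0422) and Slc3a2 by 0.34 (adjusted p = 0.0360). With no filter Rusc1 (0.0860) and Slc3a2 (0.0757) did not pass, which left 1 call. The liver calls fell to 1 when WT replicate 1, WT replicate 2, WT replicate 3, KO replicate 5 or KO replicate 6 was left out, to 2 without KO replicate 8, and to 0 by limma with neighbouring libraries summed, when 4 list genes had an unadjusted p below 0.05.

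Finally, the genes whose levels ran most like each member over the 24 libraries were listed, with Pearson's r of log2(CPM + 0.5) among 16626 genes. These coefficients mostly carry the differences between tissues, since the libraries of a tissue share them, and are a description. Cnga3 ran most like Tmprss13 (0.991) and the sodium channel gene Scn4a (0.977), and Slc22a12 like Asb14 (0.988) and Dmkn (0.987). Padi2 ran like Zfp275 (0.991) and Fyn (0.991), Lrrn1 like Eml5 (0.998) and Cbx6 (0.998), and Rundc3a like Fmnl1 (0.996) and Klhl32 (0.995). Slc38a1 ran like Spock1 (0.996) and Gad1 (0.996), the latter an enzyme that makes the transmitter GABA, and Chst2 like Ppm1l (0.992) and Adam11 (0.992). Scn4a was itself among the largest increases in testes, with a log2 change of 1.06.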

How the data were processed

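Total RNA was prepared with the Illumina Stranded Total RNA Prep with Ribo-Zero Plus and sequenced paired-end on a NovaSeq 6000, and the authors aligned reads with STAR to mm10 and estimated counts with RSEM on GENCODE M21. The deposited values are expected counts per gene, of which 14.5% of those above 0 are not whole because reads are shared between genes. The strand setting of the counting and the tool versions are not given in the sources used here, so reads of overlapping genes on opposite strands may have been mixed. All 24 columns matched a sample (0 unmatched).

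For each tissue, genes with at least 1 CPM in at least 4 of 8 libraries were fitted with limma 3.58.1 (voom, quantile normalization) in R 4.3.3, comparing KO with WT, with Benjamini-Hochberg adjustment over all genes tested and a threshold of 0.05. WT tissues were fitted together with TMM factors. edgeR 4.0.16 and DESeq2 1.42.0 on rounded counts, other filters and normalizations, and left-out libraries were alternatives. On simulated counts with 200 genes changed by a log2 value of 1, 94% were recovered in testes (19329 genes), 91.5% in cerebellum (16225) and 86% in liver (12816), and 81.5% to 87.5% between WT tissues (21697), with 2.59% to 6.32% of calls false. The simulated libraries were drawn independently, with fewer genes changed than were called here, so these rates need not hold for these data. Group means are given with the SD, and n = 4. Precision at low levels is set by the counts given beside them, and intervals of fitted changes are 95% intervals from limma. The members and lists were chosen with earlier results of these data known. Named genes were Thumpd1, the members, up to 4 called genes per list in testes (smallest p) and up to 2 in each other tissue, genes overlapping a member, the 2 genes most alike each member, and genes ranked above a member in testes; Kcnk3 and Pax1 were named as the next in rank. Scn4a is named as alike Cnga3, and Crisp1 and Adam7 were named after their values were seen. A called gene that this rule would name is not reported here. Figures were drawn with matplotlib 3.10.9.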

Additional observations from a re-analysis of the deposited data

Results flagged for a closer look

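In 4-library groups, a library was picked out when it stood far from the other 3, a check made on 70 groups that chance alone would meet in about 1 of 20. In testes, Cnga3 in KO replicate 8 was low at 3.53 CPM, Padi2 in WT replicate 2 was high at 4.78 CPM, Slc22a12 in WT replicate 4 was high at 3.61 CPM and Slc38a1 in KO replicate 7 was high at 5.76 CPM. The same KO replicate 7 stood apart with summed Sertoli markers of 2832 CPM and Leydig markers of 1975 CPM, and WT replicate 2 with epididymis markers of 116 CPM. Thumpd1 in cerebellum WT replicate 4, at 24.02 CPM, was high within a narrow group. Cnga3 at 0.0545 CPM in cerebellum WT replicate 3 and 0.0264 CPM in liver KO replicate 7 is a single count in each, and Lrrn1 at 0.150 CPM in liver KO replicate 5 is 3 counts or fewer.

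Chst2 moved in opposite directions in 2 tissues, lower in all 4 KO testes libraries and higher in all 4 KO liver libraries (log2 change 0.52 in liver). The difference between the tissues was not tested.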

How the results depend on the processing

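The largest effect came from summing libraries with neighbouring numbers (1 with 2, 3 with 4, and so on), an alternative chosen after seeing the data. Called genes then numbered 2 in testes, 47 in cerebellum and 11 in liver, against 3957, 1045 and 757, and list genes 0 in each tissue instead of 16, 11 and 3, and these sums leave 2 samples per group. Sample quality weights gave 6107, 1757 and 1705 called genes, and 26 list genes in testes and 7 in liver, no filter gave 628 in cerebellum and 492 in liver, and 6 and 1 list genes there, and DESeq2 gave 1408 in liver and 8 instead of 3 list genes there. Leaving out 1 library gave 1711 to 4913 called genes in testes (1711 without WT replicate 3, 1724 without WT replicate 4, 2597 without WT replicate 2, 2545 without KO replicate 7), 417 to 2317 in cerebellum (417, 463 and 472 without WT replicates 1, 3 and 4; 438, 2317, 543 and 545 without KO replicates 5, 6, 7 and 8) and 284 to 795 in liver (284, 316 and 462 without WT replicates 1, 2 and 3; 359 without KO replicate 8), and 6 to 19 list genes in testes, 5 to 20 in cerebellum and 1 to 4 in liver.

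The 7 changes in testes, whose direction the choice of members fixed, moved by less than the spread between libraries under the 15 alternatives, and with neighbouring libraries summed none of the 7 was among the 2 called genes. Changes near 0 turned sign. Rundc3a in cerebellum came to -0.022 with TMM, -0.021 with edgeR and -0.021 with DESeq2 and to between -0.033 and 0.038 with a library left out, Rundc3a in liver to 0.051 with quality weights and between -0.34 and 0.084 with a library left out, and Slc38a1 in liver to between -0.14 and 0.25 with a library left out, none of them passing the test. In the WT tissues, quantile normalization turned Lrrn1 to -0.70 and Slc38a1 to -0.41 for testes against liver, and the share of called genes higher in testes went from 56.1% to 46.4% against cerebellum and from 61.5% to 46.7% against liver; for cerebellum against liver the share higher in cerebellum went from 49.5% to 55.5% with edgeR.

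Replicate numbers are shared only between tissues, and same-numbered WT libraries did not deviate together (correlations from -0.030 to 0.036). Different tissues of the same animal need not deviate together, so this check cannot tell whether same-numbered libraries share an animal. The replicate block gave 19742 called genes for testes against cerebellum, 19729 for testes against liver and 19079 for cerebellum against liver, against 19603, 19663 and 18980 without it. The fits without 1 WT replicate number required 1 CPM in 3 libraries. Depth limits Cnga3, Lrrn1, Slc22a12 and Chst2, whose values in testes rest on under 160 counts per library. It also limits Slc38a1 in KO testes (80.2 to 211 expected counts) and Padi2 in WT testes (98 to 154 counts).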
